A study of Mus musculus with 6 samples.

Results

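Trbv19, Trbv26 and Trbv29 are V genes of the mouse T cell receptor β (TCR-β) locus, whose proteins are known as Vβ6, Vβ3 and Vβ7. In the deposited clones they are written TRBV19, TRBV26 and TRBV29. They were chosen for their known reactivity to endogenous superantigens, and every clone whose best-scoring V gene was one of them was taken from all 6 libraries. They make 3 of the 24 Trbv genes with coding clones and hold 32719 of 330061 coding clonotypes and 42991 of 485439 unique molecular identifiers (UMIs). Trbv19 had 18694 clonotypes and 24801 UMIs, Trbv26 9767 and 12707, and Trbv29 4258 and 5483. The kidneys contributed 117 clonotypes of Trbv19, 54 of Trbv26 and 22 of Trbv29.

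A V gene codes for most of the variable domain of the β chain, and its last bases open the complementarity determining region 3 (CDR3), which is completed by a D and a J gene and by bases added or lost at the joints. Superantigens bind the side of the β chain that the V gene encodes, so they act on all T cells with a given Vβ whatever their CDR3. Mouse mammary tumour proviruses in the genome code for such superantigens, and in strains that carry the matching provirus and a presenting class II molecule such as I-E, T cells with the reactive Vβ are deleted in the thymus. C57BL/6 mice lack I-E.

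TCR-β mRNA was sequenced from CD4+ T cells of the left kidney and of the spleen of 3 C57BL/6 wildtype mice (female, aged 10 to 14 weeks by the study's methods), 1 library per organ and mouse. All mice had a reversible obstruction of the right ureter (RUUO), clipped on day 0 and released on day 6, then a lasting obstruction of the left ureter (UUO) begun on day 17. Harvest was on day 22, so no library came from an uninjured mouse and the organs differ in injury as well as in site. The cells were enriched on L3T4 (CD4) microbeads and sorted, and since only TCR-β was amplified, their CD4 identity could not be checked against marker genes. How many cells went into a library is not given in the sources used here. Kidney libraries held 693 to 1248 UMIs of coding clones and spleens 97735 to 224811, so a gene with 0 UMIs in the smallest kidney may still make up 0.433% of it (a limit of 3 counts). Each UMI was read 467 to 793 times in the kidneys and 8.53 to 21.2 times in the spleens.

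The 3 genes lie on chromosome 6 of GRCm38.p6, at 41178589 to 41179048 (Trbv19), 41227525 to 41227913 (Trbv26) and 41271403 to 41271881 (Trbv29). RefSeq annotates Trbv19 and Trbv26 as V segments and Trbv29 as a V segment pseudogene, although 4258 of its 4953 clones had a coding CDR3 in these libraries. The stretch that each gene gives to the CDR3 is shown first, because the last bases of this stretch differ between the 3 genes, although they are often lost at the joint. It was read from the spleen clones, coding or not, whose MiXCR alignment ended exactly at the end of the V gene. Shown is the most frequent sequence among them. It was found in 86.6% of 2004 such clones of Trbv19, 88.2% of 550 of Trbv26 and 92.3% of 233 of Trbv29.
Trbv19: tgtgccagcagtatag
Trbv26: tgtgccagcagtctgtc
Trbv29: tgtgctagcagtttatc

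The next CDR3 sequences are among the largest clonotypes of each gene, shown because the UMI share of Trbv26 in the kidney of mouse 1 turns on a single one of them. A clonotype is a CDR3 nucleotide sequence with its V and J gene, and capitals mark the bases between the V and the J alignment of MiXCR (added bases and what remains of the D gene).
Trbv26 with Trbj1-5, mouse 1: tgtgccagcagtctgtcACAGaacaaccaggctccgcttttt
Trbv26 with Trbj2-7, mouse 2: tgtgccagcagtctTCatgaacagtacttc
Trbv19 with Trbj1-2, mouse 2: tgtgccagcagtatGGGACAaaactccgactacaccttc
Trbv19 with Trbj1-1, mouse 2: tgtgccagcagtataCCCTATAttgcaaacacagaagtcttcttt
Trbv19 with Trbj2-2, mouse 1: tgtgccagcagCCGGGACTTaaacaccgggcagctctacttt
Trbv29 with Trbj2-3, mouse 1: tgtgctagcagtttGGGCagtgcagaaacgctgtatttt
Trbv29 with Trbj1-6, mouse 1: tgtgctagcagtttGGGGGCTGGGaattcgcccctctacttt

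The Trbv26 clonotype with Trbj1-5 was the largest clonotype of the kidney of mouse 1. It held 20 of 773 UMIs there, or 2.59% (95% Clopper-Pearson interval 1.59 to 3.97, counting error only), and 86 UMIs, or 0.0537%, in the spleen of the same mouse, where it ranked 8. It was in no library of mice 2 and 3. Its V alignment reached the V end and left 4 bases between V and J.

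The other large clonotypes were smaller in the kidney. The Trbv19 clonotype with Trbj1-2 had 9 UMIs in the kidney and 26 in the spleen of mouse 2, and that with Trbj1-1 had 5 and 96. The largest Trbv19 clonotype of spleen 1, with Trbj2-2, had 64 UMIs there and 1 in the kidney. The Trbv26 clonotype with Trbj2-7 had 57 UMIs in spleen 2 and 0 in the kidney. The Trbv29 clonotype with Trbj2-3 had 53 UMIs in spleen 1 and 0 in the kidney, and no Trbv29 clonotype held more than 2 UMIs in a kidney, where the one with Trbj1-6 stood at 2 UMIs against 4 in the spleen. Large spleen clonotypes were thus found both with and without UMIs in the kidney of the same mouse.

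Trbv19 took the largest share of UMIs of the 3 genes in both organs. In kidneys 1, 2 and 3 its share was 5.95%, 6.01% and 6.49%, and in spleens 1, 2 and 3 it was 4.26%, 5.61% and 5.33%. Every kidney lay above every spleen, at 6.15% ± 0.298 (SD, n = 3) against 5.07% ± 0.714 (SD, n = 3), although the 95% Clopper-Pearson intervals of the kidney values, from 4.39 to 8.59, cover the spleen values of mice 2 and 3. Of all 24 V genes, 8.33% had every kidney above every spleen by UMIs. The fitted log2 difference of kidney over spleen was 0.27 (95% interval -0.083 to 0.63), which did not pass the test (edgeR's quasi-likelihood test, Benjamini-Hochberg adjusted p = 0.350). UMIs count mRNA molecules, so the number of cells and the TCR-β mRNA per cell cannot be told apart.

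Trbv26 made up 4.79%, 2.16% and 3.61% of the kidney UMIs of mice 1, 2 and 3 and 2.61%, 2.64% and 2.57% of the spleen UMIs. The spleens had an SD of 0.0324 percentage points (n = 3), while the kidneys spread on both sides of them. The kidney of mouse 1 was the highest, and without its largest clonotype its share was 2.26%. The fitted log2 difference was 0.36 (95% interval -0.099 to 0.81; edgeR, adjusted p = 0.350), and with that clonotype left out of both organs of mouse 1 it was -0.0035 (edgeR, adjusted p = 0.989).

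Trbv29 was the least used of the 3, with 0.776%, 0.801% and 1.44% of the kidney UMIs and 1.38%, 0.903% and 1.24% of the spleen UMIs of mice 1, 2 and 3. The organs overlapped. The kidney values rest on 6, 10 and 10 UMIs, and the fitted log2 difference of -0.29 had a 95% interval of -1.04 to 0.46 (edgeR, adjusted p = 0.774), which still holds a 2-fold lower kidney share. Of the 24 V genes tested, 4.17% were called by UMIs, and none of the 3 genes was among them.

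**Figure D1:**
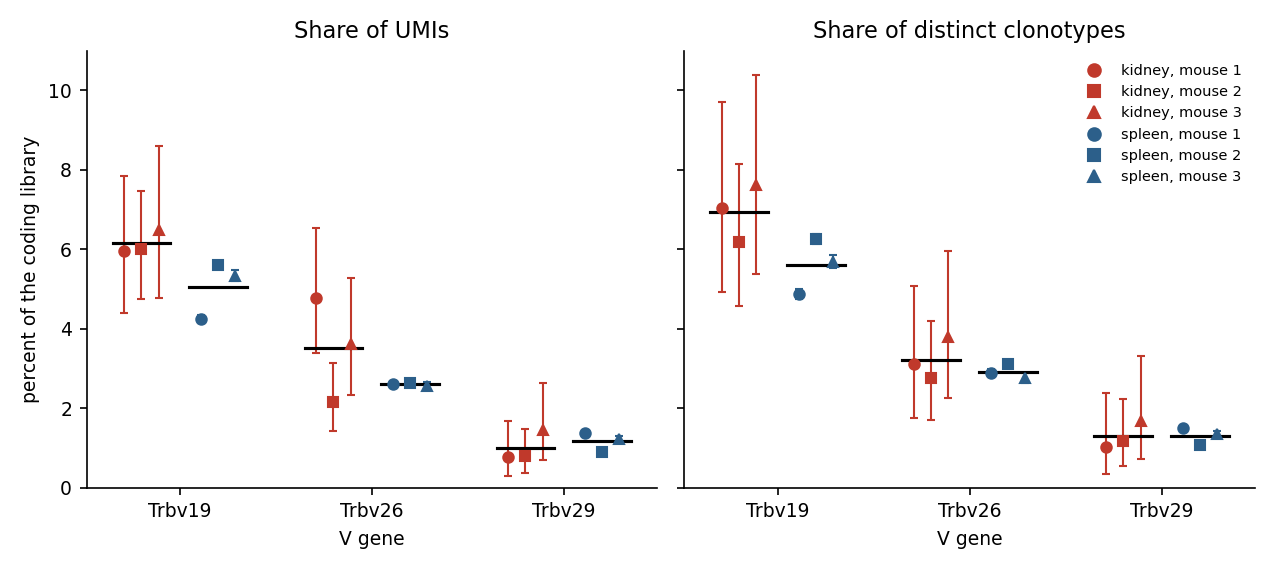
Share of UMIs (left) and of distinct clonotypes (right) of coding clones taken by each gene, in percent of the library, for 3 kidneys and 3 spleens. Points are libraries with 95% Clopper-Pearson intervals, black lines are means over 3 mice, and the kidney of mouse 1 stands out at 4.79% for Trbv26 by UMIs but at 3.11% by clonotypes.

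Counted by distinct clonotypes, each once whatever its UMIs, the genes kept their order. Expansion and mRNA content can still affect which clonotypes are seen at the depth of the kidneys. Trbv19 made up 7.04%, 6.18% and 7.61% of the kidney clonotypes and 4.87%, 6.26% and 5.68% of the spleen clonotypes, with kidney 2 below spleen 2. Trbv26 made up 3.11%, 2.76% and 3.81% of the kidney clonotypes and 2.90%, 3.11% and 2.76% of the spleen clonotypes. For Trbv29 the kidney values were 1.04%, 1.18% and 1.69% and the spleen values 1.52%, 1.08% and 1.35%. All 3 genes overlapped between the organs, whereas 12.5% of the V genes had every kidney above every spleen. The fitted log2 differences were 0.29 for Trbv19 (edgeR, adjusted p = 0.306), 0.11 for Trbv26 (adjusted p = 0.882) and -0.034 for Trbv29 (adjusted p = 0.968). The share of V genes called by clonotypes was 0%, and 3 of 24, none of them among the 3 genes, had an unadjusted p under 0.05.

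Trbv19 and Trbv26 never changed places in the order of the spleen, where Trbv26 ranked 14 of 24 V genes by UMIs in all 3 mice, Trbv19 between 8 and 10 and Trbv29 between 16 and 18. In the kidneys Trbv19 ranked 5 to 9, Trbv26 10 to 14 and Trbv29 16 to 17. Over the 6 libraries, with each gene's log2 share centred on its own mean, the usage nearest to that of Trbv19 was that of Trbv13-3 and Trbv13-2 (Euclidean distances 0.49 and 0.50, among 19 other V genes). The nearest to Trbv26 were Trbv13-2 (0.83) and Trbv19 (0.88), and the nearest to Trbv29 were Trbv12-1 (0.56) and Trbv1 (0.64).

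A list of 7 other V genes known for superantigen reactivity was described beside them: Trbv12-1, Trbv12-2, Trbv13-3, Trbv15, Trbv16, Trbv17 and Trbv24. By UMIs, 3 of the 7 had a positive and 4 a negative log2 difference of kidney over spleen, with a median of -0.025, against -0.090 over all 24 V genes and 0.27 over Trbv19, Trbv26 and Trbv29. Trbv15 (Vβ12) alone passed the test, with a log2 difference of 0.81 (edgeR, adjusted p = 0.000866), at 3.90% to 7.503% of the kidney UMIs and 3.35% to 3.72% of the spleen UMIs. With the mouse as a block, 0 of the 24 V genes were called by UMIs, and 0 were called without mouse 1 or without mouse 2. By distinct clonotypes Trbv15 had a log2 difference of 0.17 (edgeR, adjusted p = 0.671) and 0 of the 7 passed.
Coding clones of Trbv24 (Vβ17) had 0 UMIs in all 3 kidneys and 0.133% ± 0.0127 (SD, n = 3) in the spleens. This is below the limit of 3 counts in any single kidney (0.240% to 0.433%), and no limit was set for the kidneys together. Trbv24 clones without a coding CDR3 had 3, 1 and 2 UMIs in kidneys 1, 2 and 3. Such clones made up a mean of 75.4% of its spleen clones.

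When reads were counted in place of UMIs, the sign of the Trbv19 difference turned, from a log2 difference of 0.27 to -0.40 (edgeR, adjusted p = 0.264). Reads behind each UMI were then compared, after this was seen. In kidneys 1, 2 and 3 a UMI of Trbv19 had 327, 239 and 217 reads, against 824, 482 and 626 for the V genes outside the 3. In the spleens it had 8.73, 6.10 and 13.7 reads, against 13.1, 8.63 and 21.5. Trbv19 lay below the other V genes in all 6 libraries, by a mean log2 ratio of -1.29 ± 0.260 (SD, n = 3) in the kidneys and -0.58 ± 0.0734 (SD, n = 3) in the spleens. The gap was wider in every kidney than in every spleen (exact two-sided permutation test, p = 0.1, the smallest that 3 against 3 libraries can give). This test did not use the pairing of the organs within mice.

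Of the 20 V genes with UMIs in all 6 libraries, 25% lay below the others in all 6: Trbv1, Trbv13-2, Trbv19, Trbv2 and Trbv3. Trbv19 was the lowest of 24 V genes in the spleens, and of 20 in the kidneys. Trbv29 lay above the other V genes in all 6 libraries, with mean log2 ratios of 0.29 ± 0.103 (SD, n = 3) in the kidneys and 0.31 ± 0.0412 (SD, n = 3) in the spleens. Trbv26 had a mean log2 ratio of 0.049 ± 0.319 (SD, n = 3) in the kidneys and 0.15 ± 0.0331 (SD, n = 3) in the spleens. By reads the kidney share of Trbv19 was therefore 2.61% ± 0.403 (SD, n = 3) rather than 6.15%.

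**Figure D2:**
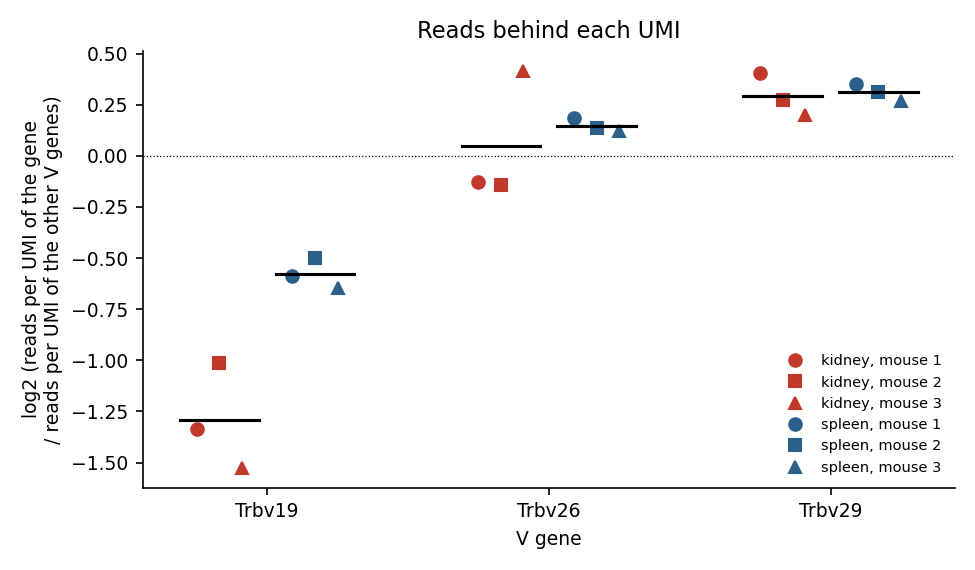
log2 ratio of the reads per UMI of each gene to those of the V genes outside the 3, by library. Points are libraries, black lines are means over 3 mice and the dotted line marks equal reads per UMI. Trbv19 lies at -1.53 to -1.01 for kidney and -0.65 to -0.50 for spleen libraries, and Trbv29 above 0 in every library.

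In the spleen, where each gene had 1055 to 8786 clonotypes in a library, the 3 genes were joined to the 12 J genes in different proportions. Trbv19 used Trbj2-7 most, in 15.3% ± 0.774 (SD, n = 3) of its clonotypes, and Trbj1-5 least, in 2.04% ± 0.221 (SD, n = 3). Trbv26 had the same extremes, with 14.7% ± 0.228 and 1.91% ± 0.405 (SD, n = 3). Trbv29 used Trbj2-5 most, in 16.6% ± 0.651, and Trbj1-6 least, in 2.51% ± 0.135 (SD, n = 3). The next examples were chosen after their values were seen.

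Trbj2-5 separated the genes in opposite directions. It was in 11.3%, 11.02% and 11.2% of the Trbv19 clonotypes and 11.3%, 10.1% and 10.8% of the Trbv26 clonotypes of spleens 1, 2 and 3, below the 13.7%, 13.6% and 14.2% of the other V genes. Of the Trbv29 clonotypes it was in 16.3%, 16.2% and 17.3%, above all of these. Trbj1-5 ran the same way: Trbv29 had 4.92%, 5.09% and 4.55%, Trbv19 1.87%, 2.29% and 1.96%, Trbv26 1.51%, 1.90% and 2.32%, and the other V genes 2.87%, 3.08% and 2.79%. For both J genes, none of the 3 genes overlapped the other V genes.

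Trbj1-3 set Trbv26 apart, with 9.55%, 9.35% and 7.32% of its clonotypes against 5.48%, 5.60% and 5.13% for the other V genes. The difference of 3.34 percentage points was positive in 3 of 3 mice (exact two-sided sign-flip permutation test, p = 0.25, the smallest that 3 mice can give). Over the 12 J genes, the spleens did not overlap those of the other V genes for 8 J genes of Trbv19 (4 higher, 4 lower), 7 of Trbv26 (3 higher, 4 lower) and 6 of Trbv29 (3 higher, 3 lower). These 21 of 36 pairs stand beside 62.2% of all pairs of the 24 V genes and 12 J genes, so unequal J pairing was as frequent elsewhere.

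Trbv26 was joined more often to the J genes of the first cluster (Trbj1). Trbj2 genes were in 60.1%, 58.1% and 60.5% of its spleen clonotypes, below the 65.6%, 64.9% and 67.4% of the other V genes and the lowest mean of 24 V genes. For Trbv19 the Trbj2 share was 63.2%, 62.96% and 64.8%, below the other V genes within every mouse and across them. Trbv29 had 65.0%, 63.9% and 65.5%, which overlapped the other V genes across mice. Of all V genes, 50% had spleens that did not overlap those of the others. By the whole spleen J profile, the nearest V genes were Trbv13-3 and Trbv1 to Trbv19, Trbv13-3 and Trbv19 to Trbv26, and Trbv13-2 and Trbv13-1 to Trbv29 (Euclidean distances 3.50 to 5.01 percentage points, 19 V genes compared).

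**Figure D3:**
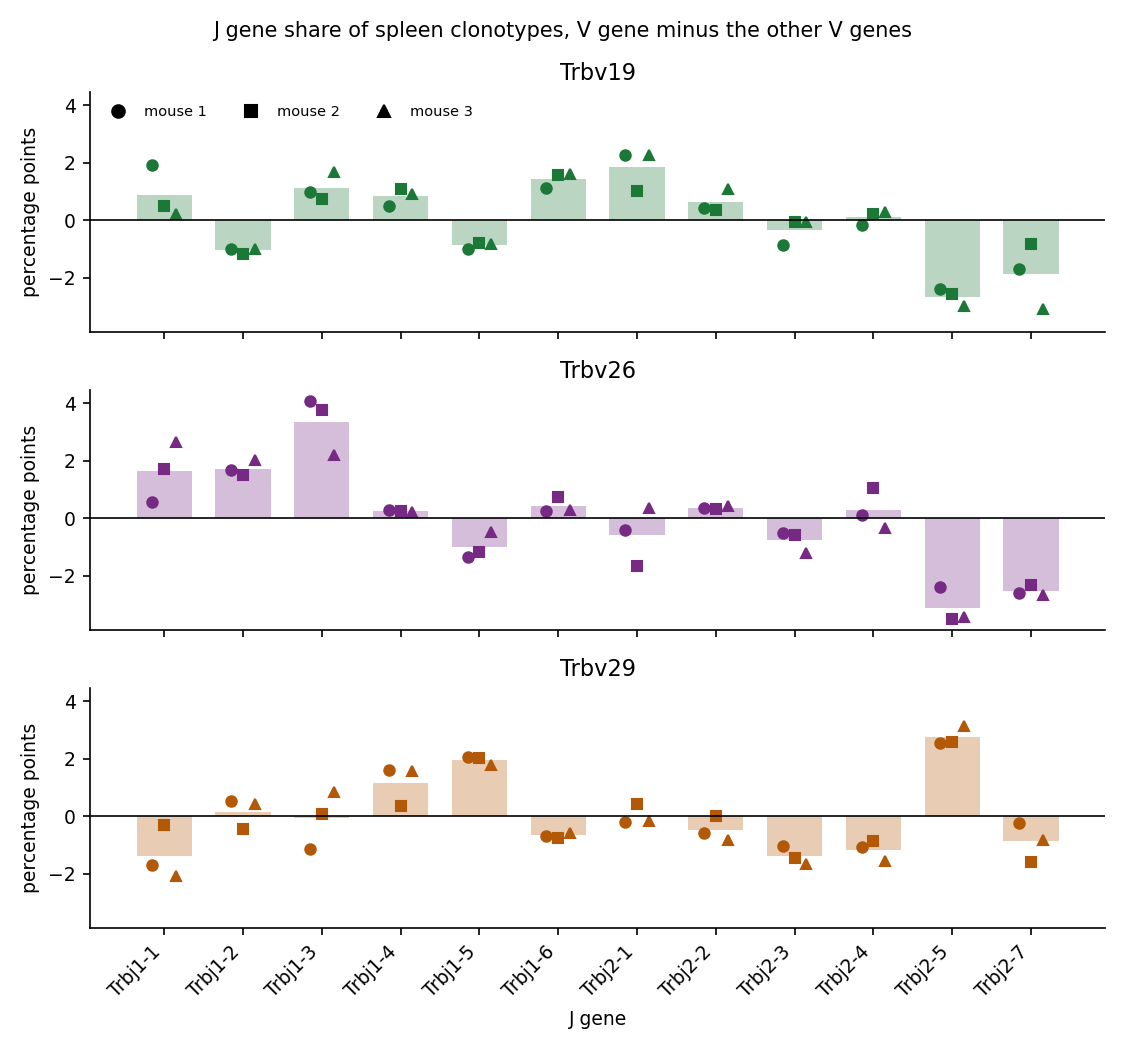
Share of spleen clonotypes joined to each J gene, as the V gene's percent minus that of the V genes outside the 3 in the same spleen, in percentage points. Points are mice and bars are means over 3 mice. Trbv26 is 3.34 points above at Trbj1-3, and Trbj2-5 is below for Trbv19 and Trbv26 and above for Trbv29.

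In the kidney, pairing with J genes could be tested by UMIs only with wide errors. Of 270 pairs of V and J genes tested, 0.741% passed, and none of them was a pair of Trbv19, Trbv26 or Trbv29. The smallest adjusted p of the 3 genes was that of Trbv26 with Trbj1-5, at a log2 difference of 3.62 (SE 0.983; edgeR, adjusted p = 0.128). Kidney UMIs of this pair numbered 21, 1 and 0 and spleen UMIs 162, 112 and 51, and 20 of the 21 were the clonotype shown above. Without that clonotype the log2 difference was 0.58 (edgeR, adjusted p = 0.872). Trbv19 with Trbj1-2 had 1, 16 and 2 kidney UMIs and 301, 648 and 202 spleen UMIs (log2 difference 1.59, SE 0.621; edgeR, adjusted p = 0.395), and 9 of the 16 were its clonotype of mouse 2.

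With the mouse as a block, 0 pairs passed. Without mouse 2, Trbv26 with Trbj1-5 passed (log2 difference 4.17; edgeR, adjusted p = 4.82e-05), and without mouse 1 Trbv19 with Trbj1-2 passed (1.87; edgeR, adjusted p = 0.0238), so each of these rests on a single mouse. The log2 difference of Trbv26 with Trbj1-5 was 0.016 without mouse 1, and that of Trbv19 with Trbj1-2 was 0.057 without mouse 2. Trbj2 genes were in 70.6%, 48.9% and 63.9% of the kidney clonotypes of Trbv19, 53.3%, 76.2% and 72.2% of those of Trbv26 and 40%, 77.8% and 62.5% of those of Trbv29. The kidneys scattered on both sides of the spleens for each gene (exact two-sided permutation tests, p = 0.9, 0.4 and 0.7).

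In the spleen, CDR3s of all 3 genes were shorter than those of the pooled other V genes. The mean length over distinct clonotypes was 13.68, 13.71 and 13.74 amino acids for Trbv19 in mice 1, 2 and 3, and 13.61, 13.61 and 13.61 for Trbv26. For Trbv29 it was 13.66, 13.75 and 13.75, and for the other V genes 13.87, 13.87 and 13.86. Each gene lay below the other V genes in 3 of 3 mice, with differences of -0.160, -0.256 and -0.148 amino acids (exact sign-flip permutation tests, p = 0.25 each). Of all 24 V genes, 83.3% had spleens that did not overlap those of the others, and the 3 ranked 15, 19 and 14 from the longest, between 14.5 (Trbv5) and 12.9 (Trbv30).

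The parts of the joint, as placed by MiXCR's alignments, which allow mismatches, differed between the genes. Trbv26 clonotypes of the spleen had a mean of 7.98 ± 0.0892 (SD, n = 3) bases between V and J, against 8.92 ± 0.0120 (SD, n = 3) for the other V genes, the third lowest of 24. Trbv19 had 9.12 ± 0.0972 and Trbv29 9.16 ± 0.0936 (SD, n = 3), both above the other V genes in 3 of 3 mice. On this measure 75% of the V genes did not overlap the others. No base of the V end was lost in 15.3% of the clonotypes of Trbv19, 14.6% of Trbv26 and 11.5% of Trbv29. For the other V genes this share was 28.7%, and 87.5% of V genes did not overlap the others here. The mean change in length of the V end was -2.91, -2.94 and -3.69 bases (negative for lost bases), against -2.10 for the other V genes.

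In the kidney, the clonotypes of Trbv19 and Trbv26 had longer CDR3s than in any spleen. The Trbv19 means were 13.88, 13.91 and 14.28 amino acids in kidneys 1, 2 and 3, and the Trbv26 means 14, 13.71 and 14.56. They exceeded the spleens by 0.316 and 0.477 amino acids without overlap (exact two-sided permutation test, p = 0.1 each). Paired within mice, the exact sign-flip permutation test gave p = 0.25 each, the smallest that 3 mice can give. Trbv29, with 13.60, 14.11 and 13.00 over 5, 9 and 8 clonotypes, overlapped its spleens (p = 0.7, exact permutation test).

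Of the 20 V genes present in all libraries, 20% had every kidney longer than every spleen: Trbv19, Trbv26, Trbv2 and Trbv23. The other V genes together had 13.86 ± 0.0710 and 13.87 ± 0.00549 (SD, n = 3) in kidney and spleen. Each kidney mean of Trbv19 rests on 34 to 47 clonotypes and each of Trbv26 on 15 to 21, with SDs over clonotypes of 0.926 to 1.41 amino acids. Whether these genes differ from the others in this respect was not tested.

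**Figure D4:**
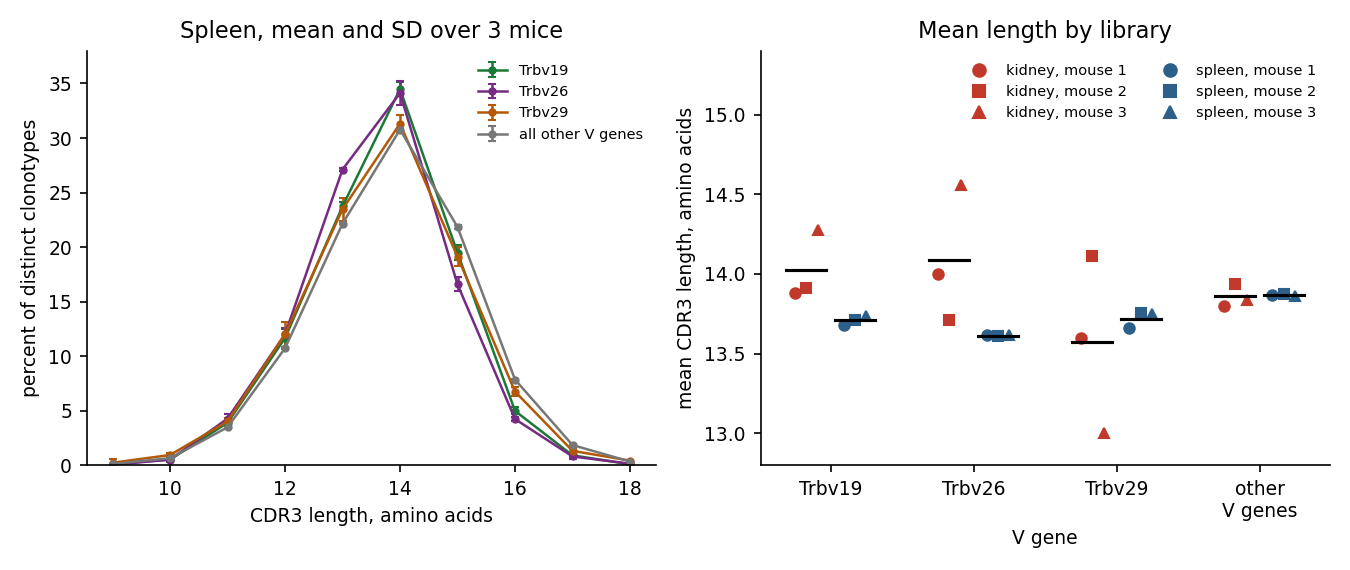
Left: CDR3 length distribution of spleen clonotypes, in percent of distinct clonotypes by length in amino acids (mean and SD over 3 mice). Right: mean CDR3 length of each library, with black lines at the means over 3 mice. At 13 amino acids, Trbv26 (27.1%) lies above the other lines, and the kidneys of Trbv19 and Trbv26 lie above their spleens.

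Clones whose CDR3 holds a stop codon or a frameshift cannot give a receptor, and were left out above. Trbv29 had many of them: 13.5%, 16.03% and 11.9% of its clones in spleens 1, 2 and 3, against 6.40%, 6.68% and 5.54% for the other V genes. Trbv19 had 4.65%, 4.50% and 3.50% and Trbv26 4.53%, 4.18% and 3.53%, both below the other V genes in 3 of 3 mice. None of the 3 genes overlapped the others, which also held for 75% of V genes, and Trbv29 ranked 6 of 24, after Trbv24 at 75.4% as the highest.

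Nearly all of these clones were frameshifts. In the spleens, frameshifts made up 13.4% ± 2.20 (SD, n = 3) of the Trbv29 clones and stop codons without a frameshift 0.484% ± 0.199 (SD, n = 3). By UMIs the non-coding share of Trbv29 was 7.79% ± 7.23 in the kidneys and 11.8% ± 1.38 (SD, n = 3) in the spleens (exact two-sided permutation test, p = 0.5). For Trbv19 and Trbv26 the organs also overlapped (p = 0.7 and 0.4, exact permutation tests).

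Kidney clonotypes of the 3 genes were often in the spleen of the same mouse. For Trbv19, 14 of 34, 28 of 47 and 13 of 36 kidney clonotypes of mice 1, 2 and 3 were found there. The counts were 4 of 15, 10 of 21 and 8 of 18 for Trbv26 and 4 of 5, 1 of 9 and 3 of 8 for Trbv29. The mean shares were 45.6%, 39.6% and 42.9%, against 48.0% for the other V genes. In spleens of other mice the shares were 3.35%, 4.74% and 2.08%. Every gene had its highest mean at the true assignment of spleens to kidneys (exact one-sided permutation test over 6 assignments, p = 0.167 each, the smallest possible).

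Most of the larger kidney clonotypes were also in the spleen, a relation that was not tested. Among those with 3 or more kidney UMIs, 10 of 11 of Trbv19 and 4 of 4 of Trbv26 were in the spleen of the same mouse, and Trbv29 had none of that size. With 2 kidney UMIs, 5 of 11 of Trbv19, 1 of 6 of Trbv26 and 1 of 4 of Trbv29 were, and with 1 UMI 40 of 95, 17 of 44 and 7 of 18. For the other V genes the counts were 128 of 149 with 3 or more UMIs, 126 of 226 with 2 and 485 of 1148 with 1. No clonotype of the 3 genes was in more than 1 kidney.

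**Figure D5:**
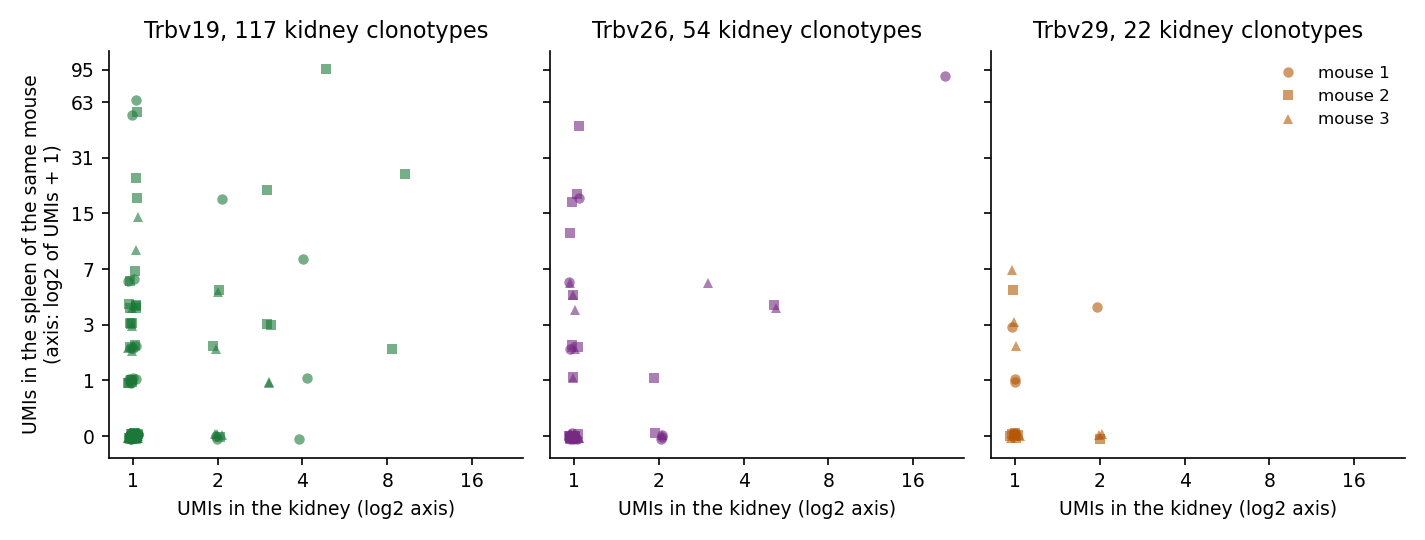
UMIs of each kidney clonotype of Trbv19, Trbv26 and Trbv29 (horizontal, log2 axis) and its UMIs in the spleen of the same mouse (vertical, log2 of UMIs + 1). Each point is a clonotype, moved at random by a small amount so that ties can be seen. The Trbv26 point at 20 and 86 UMIs stands apart, and most clonotypes have 1 kidney UMI.

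A measure of dominance within each gene was the share of its UMIs held by its largest clonotype. In the kidneys this was 8.70%, 12% and 6.67% for Trbv19, 54.1%, 18.5% and 20.0% for Trbv26 and 33.3%, 20.0% and 20.0% for Trbv29. In the spleens it was 0.269% to 0.939%, 0.239% to 2.06% and 0.578% to 2.39%. The kidneys were higher without overlap (exact two-sided permutation test, p = 0.1 each), as for 100% of the V genes present in all libraries. The kidneys held 6 to 75 UMIs of a gene, of which 1 UMI alone is 1.33% to 16.7%. In every kidney, 1 UMI of a gene is a larger share than the highest spleen value of that gene. The kidneys therefore had to be higher, and this test cannot tell dominance from depth. The part of depth in the size of the difference was not tested. UMIs per clonotype, as a log2 ratio to the other V genes of the library, differed between kidney and spleen by -0.019 for Trbv19, 0.23 for Trbv26 and -0.23 for Trbv29 (exact permutation tests, p = 0.7, 0.7 and 0.2). The Trbv26 ratio was 0.63 in kidney 1 and -0.37 and -0.10 in kidneys 2 and 3.

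Between mice, few clonotypes of the 3 genes were shared. Of 18162 distinct spleen clonotypes of Trbv19, 394 (2.17%) were in at least 2 of the 3 spleens. The counts were 196 of 9509 for Trbv26 (2.06%) and 27 of 4208 for Trbv29 (0.642%). The other V genes, pooled, had 3.89%, with no test of the difference and no comparison with single V genes of like usage. In all 3 spleens were 21 clonotypes of Trbv19, 8 of Trbv26 and 1 of Trbv29. The Trbv29 clonotype is shown because it is the only one of its gene in all 3 spleens, and MiXCR placed no base between its V and J.
Trbv29 with Trbj1-3: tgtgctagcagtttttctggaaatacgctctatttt
It had 1 UMI in each spleen and 0 in every kidney. Among the clonotypes in all 3 spleens, some also had no base placed between V and J. They were 4.76% of the 21 of Trbv19 and 12.5% of the 8 of Trbv26, which is 1 clonotype each. For the other V genes the share was 12.2%. Over all spleen clonotypes these shares were 1.67% for Trbv19, 3.15% for Trbv26, 2.11% for Trbv29 and 2.04% for the other V genes. The clonotypes in all 3 spleens had on average 4.86 (Trbv19) and 1.75 (Trbv26) bases between V and J.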

How the data were processed

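The 6 libraries hold TCR-β mRNA of sorted CD4+ T cells, tagged with UMIs in a 5′ RACE. The authors assembled clones with MiXCR and deposited the UMI counts and read counts of each clone, which are not normalized. Each clone's deposited fraction was compared with its count and not used further, and the deposited quality score was left aside.

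Clones with the same CDR3 bases, V and J were taken as a clonotype, and non-coding clones were set aside. For usage, the quasi-likelihood test of edgeR was run on counts per Trbv gene or V-J pair with at least 10 UMIs, with library sizes only, over the whole table. Single values were tested by exact permutation. The permutation tests of kidney against spleen took the libraries as unpaired, and with pairing 3 mice cannot give a p under 0.25. The V genes outside the 3 were pooled for comparison. Gene positions come from RefSeq (GRCm38.p6), the build of the submitters' processing notes. Clones with several equal V hits made up at most 0.334% of the 3 genes' clones in a library. Intervals cover counting error only. Named were the 3 genes, the list of 7, the nearest V genes, the largest clonotypes and the most and least used J genes. The genes, lists and tests were chosen with earlier results of these data known.

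The labels give kidney and spleen of each number to a single mouse. Over the V genes, the deviations of both from their organ's mean correlated at 0.284, 0.365 and 0.298 in mice 1, 2 and 3. Replicates are different mice. Python 3.11.15 (numpy 2.4.6, pandas 2.3.3, scipy 1.17.1, matplotlib 3.10.9) and R 4.3.3 (edgeR 4.0.16, DESeq2 1.42.0) were used, and the tests were checked on simulated data. For edgeR these were Poisson counts drawn from the spleen shares, without spread between mice, expanded clones or pairing of the organs.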

Additional observations from a re-analysis of the deposited data

How the results depend on the processing

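Of 326 values of 41 results under alternative settings, 296 were rated unchanged. For the exact permutation tests this means the direction only, since they cannot reach a p under 0.05. For counts of calls it means a similar number. With the mouse as a block, the differences of the permutation tests equal the reported ones by construction. With the mouse as a block, 0 V genes were called by UMIs (1 in the fit reported), 0 V-J pairs (2 in the fit reported), and the Trbv29 log2 difference by clonotypes was 0.0053; no other call changed. The number of V genes called by UMIs was 2 with TMM, 2 with DESeq2, 4 with read counts, 0 with at least 2 UMIs per clonotype and 0 to 1 without a mouse. By clonotypes it was 1 with TMM. V-J calls were 0 by distinct clonotypes and 0 to 5 without a mouse. The Trbv19 log2 difference was -0.40 by reads, and that of Trbv26 by UMIs was -0.0035 without its clonotype of mouse 1, an alternative chosen after seeing the data. By clonotypes, Trbv29 was 0.028 with DESeq2 and 0.060 with at least 2 UMIs per clonotype, and without a mouse Trbv29 ran from -0.20 to 0.19 and Trbv26 from -0.052 to 0.29. The kidney minus spleen Trbj2 share of Trbv26 was -5.26 weighted by UMIs and -7.79 with at least 2 UMIs, and without a mouse it ran from -7.49 to 3.23 for Trbv19 and -14.0 to 5.42 for Trbv29. Without a mouse, the length difference of Trbv29 ran from -0.404 to 0.148, the UMIs per clonotype of Trbv19 from -0.089 to 0.047 and of Trbv26 from -0.049 to 0.40, and the non-coding share of Trbv19 from -0.541 to 2.58. The cause of these changes was not tested. Over all alternatives, adjusted p by UMIs was 0.131 to 0.634 for Trbv19, 0.152 to 0.989 for Trbv26 and 0.604 to 0.980 for Trbv29, and by clonotypes 0.218 to 0.894, 0.561 to 0.955 and 0.841 to 0.989. The kidney depth, with 26 UMIs of Trbv29 in all, limits every kidney value.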

Other observations

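The low number of reads behind Trbv19 UMIs was also seen when only clonotypes with a single UMI were compared. In kidneys 1, 2 and 3 their median was 228, 159 and 110 reads, and in spleens 1, 2 and 3 it was 7, 6 and 12 reads. For the V genes outside the 3 the medians were 926, 524.5 and 706 reads (kidney) and 13, 9 and 22 (spleen). Trbv29 had medians of 781.5, 826 and 596 reads in the kidneys, on 4, 8 and 6 such clonotypes, and of 17, 10 and 27 in the spleens. Trbv26 had 1118, 428.5 and 804 (kidney) and 15, 9 and 24 (spleen). Trbv19 was lowest of these in all 6 libraries. What sets the reads per UMI was not tested.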
